A study of Mus musculus with 39 samples.

Results

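Genes of the S100 and annexin families were examined in 39 single crypt epithelial cells of the irradiated mouse small intestine. The 10 genes described here, 4 S100 genes (S100a6, S100a10, S100a11 and S100a13) and 6 annexin genes (Anxa1, Anxa2, Anxa3, Anxa4, Anxa5 and Anxa11), were taken by name from the 25219 genes of the deposited table. They were chosen by their family and by their FPKM over these cells, which was already known, so what follows describes these cells and contains no test. The mice carried both Lgr5-EGFP-Ires-CreERT2 and the reporter Rosa-lsl-tdTomato, and in them tamoxifen activates a recombinase made from the Lgr5 locus and thereby switches on tdTomato in Lgr5-expressing stem cells and in all their later progeny. Every mouse had received tamoxifen 24 h before 10 Gy of total body irradiation (TBI), and tdTomato+ Sca1- cells (Lgr5-derivatives) were sorted 48 h after TBI. There was 1 group of cells and no unirradiated cell was analysed here. No animal is named for any cell, so the 39 cells were treated as 1 biological sample. Every SD below describes cells rather than mice, and cells are called by the number in their label.

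S100 proteins are small calcium-binding proteins of the EF-hand type that act mostly as dimers, and annexins are proteins that bind phospholipid membranes in the presence of calcium. The families meet in complexes in which an S100 dimer joins annexin molecules at a membrane, of which the pair of S100a10 and Anxa2 is the best known. Such complexes take part in membrane traffic, membrane repair and anchoring of the cytoskeleton, and in the gut several annexins lie at the apical side of epithelial cells.

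Expression was measured as FPKM, a fragment count divided by transcript length and by the total for that cell, which can be compared between genes because it is scaled to length. The estimated counts of a cell summed to 3089188 at the median (lowest 398418, highest 3903971), and between 2287 and 5779 genes reached 1 FPKM in a cell. Cells 9 and 79 stood apart with the fewest genes, 2287 and 2335, and with 33.4% and 63.5% of the total behind their FPKM on genes, while the median cell had 88.1%. Cell 43, with 661255 counts, was shallower than cell 79, with 1466914, but had 4943 genes. Correlations named in the text, among the 10 genes or with a marker list, are also given without cells 9 and 79 where they moved by 0.1 or more. Of 6 epithelial markers, Epcam, Krt8 and Krt18 were at 10 FPKM or more in each of the 39 cells, Cdh1 in 38, Krt19 in 37 and Vil1 in 23. Of 6 fibroblast and endothelial markers, 5 were at 0 in every cell and Vim reached at most 3.29 FPKM. Of 6 leukocyte markers, Cd74 was at 10 FPKM or more in 15 cells and reached 613 FPKM, while the others did not exceed 2.75 FPKM. Of 3 neutrophil markers, S100a8 and S100a9, themselves S100 genes, were at 0 in every cell, and Csf3r was at 1 FPKM or more in 6 cells and reached 17.1 FPKM in cell 9. Lgr5 was at 1 FPKM or more in 8 cells. Ly6a, which encodes Sca1, was at 477 FPKM in cell 5 and 509 FPKM in cell 34, and was below 10 FPKM in the others. Both cells carry the Sca1- label, which comes from sorting by surface protein and not from RNA.

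The 10 genes ranged from detection in every cell to detection in a single cell. A gene was called switching when 10% to 90% of the cells had at least 1 FPKM and the median over those cells was at least 10 FPKM, and uniform when over 90% of the cells had at least 1 FPKM and the SD of log2(FPKM + 1) was below 1.5. By these rules 5 genes switched (S100a6, S100a13, Anxa2, Anxa3 and Anxa5), 1 was uniform (Anxa4) and 4 met neither rule (S100a10, S100a11, Anxa1 and Anxa11). Among the 9804 genes averaging at least 1 FPKM, 55.5% switched and 3.2% were uniform, so the share of switching genes in the families was close to that of other genes. Among the 867 genes averaging at least 100 FPKM, to which 5 of the 10 belong, 27.3% switched and 24.9% were uniform. Detection at 1 FPKM in over 90% of the cells was found for 3 of the 10 genes (S100a10, S100a11 and Anxa4), against 9.18% of the 9804 genes and 72.5% of the 867 genes. Each cell had between 3 and 8 of the 10 genes at 10 FPKM or more, with a median of 5.

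**Figure D1:**
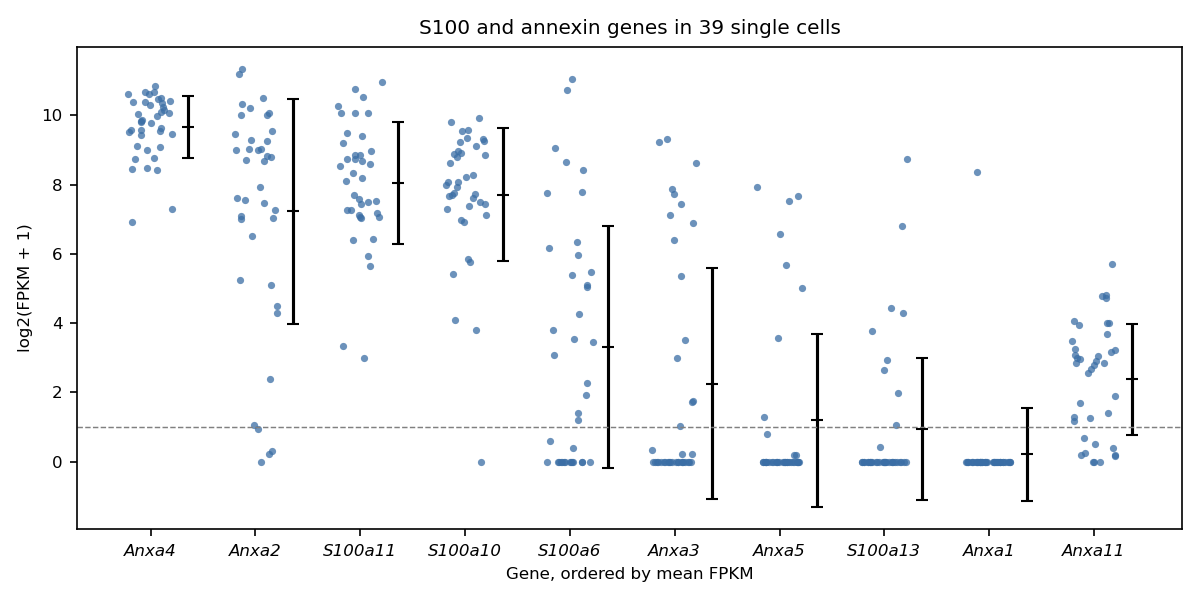
Level of each gene in each cell as log2(FPKM + 1), with genes ordered by mean FPKM. Points are the 39 cells, bars are the mean and SD over cells, and the dashed line marks 1 FPKM. Anxa4 lies high in every cell, Anxa2 and S100a6 extend from high levels to below the line, and Anxa1 is above 0 in a single cell.

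The genes lie on several chromosomes, with positions given in mm10 (GRCm38) as deposited. The S100 genes all lie on chromosome 3. S100a13 (chr3:90514435-90524581) and S100a6 (chr3:90612894-90614414) belong to the row of S100a genes from S100a1 to S100a9, whereas S100a11 (chr3:93520496-93526288) and S100a10 (chr3:93555117-93564645) lie 2825 kb beyond S100a9 and 28.8 kb from each other. S100a13 starts 104 bases beyond the end of S100a1, yet it was at 1 FPKM or more in 9 cells against 19 cells for S100a1, and both were at 10 FPKM or more in 2 cells. Anxa5 also lies on chromosome 3 (36448924-36475887), and Anxa1 lies on chromosome 19 (20373434-20390671), Anxa2 on chromosome 9 (69453683-69491785), Anxa3 on chromosome 5 (96793385-96845968), Anxa4 on chromosome 6 (86736840-86793584) and Anxa11 on chromosome 14 (25842155-25886804).

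The 250 bases before the start of 4 of these genes are printed because they set the abundant genes with the widest spread over cells (S100a6 and Anxa2) beside those found in every cell (S100a11 and Anxa4). They are RefSeq sequences of GRCm38.p6, at chr3:90612644-90612893 and chr3:93520246-93520495 on the plus strand, chr9:69453433-69453682 on the plus strand and chr6:86793585-86793834 on the minus strand, written 5′ to 3′ with the start of the transcript just after the last base. Capitals mark matches to the searched motifs, in either strand: TGANTCA (the site of AP-1), GGAATG (the core of the site of TEAD factors), TATAAA and GGGCGG (the GC box). Windows were found for 8 of the 10 genes, not for S100a10 and Anxa3.
S100a6: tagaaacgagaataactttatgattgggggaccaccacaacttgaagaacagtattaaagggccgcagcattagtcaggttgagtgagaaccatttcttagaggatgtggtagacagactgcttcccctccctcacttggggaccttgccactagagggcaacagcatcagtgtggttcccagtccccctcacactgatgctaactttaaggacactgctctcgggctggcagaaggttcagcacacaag
Anxa2: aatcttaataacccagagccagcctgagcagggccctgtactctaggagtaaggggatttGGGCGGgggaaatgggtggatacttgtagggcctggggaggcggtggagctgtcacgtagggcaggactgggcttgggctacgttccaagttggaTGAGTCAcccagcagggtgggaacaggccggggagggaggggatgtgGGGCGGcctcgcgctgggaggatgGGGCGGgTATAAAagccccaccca
S100a11: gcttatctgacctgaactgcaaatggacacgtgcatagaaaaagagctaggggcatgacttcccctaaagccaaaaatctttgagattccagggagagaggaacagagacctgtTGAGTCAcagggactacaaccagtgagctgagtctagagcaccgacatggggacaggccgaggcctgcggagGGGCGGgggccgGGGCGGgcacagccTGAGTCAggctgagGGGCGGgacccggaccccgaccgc
Anxa4: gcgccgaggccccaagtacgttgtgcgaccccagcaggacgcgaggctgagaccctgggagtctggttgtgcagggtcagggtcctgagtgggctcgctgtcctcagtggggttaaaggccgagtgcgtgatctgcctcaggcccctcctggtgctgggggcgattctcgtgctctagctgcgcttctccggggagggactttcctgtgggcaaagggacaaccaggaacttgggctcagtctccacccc
The Anxa2 window held 1 match to TGANTCA, 95 bases before the start, a TATAAA match 17 bases before it and 3 matches to GGGCGG. The S100a11 window held 2 matches to TGANTCA, 136 and 38 bases before the start, and 3 to GGGCGG. The S100a6 and Anxa4 windows held none of the 4 motifs, and neither did those of S100a13 and Anxa5. A second Anxa4 window, 18470 bases from the deposited start, also held none. The Anxa1 window held a GGAATG match 236 bases before the start and a TATAAA match 32 bases before it. That of Anxa11 held 3 matches to GGGCGG. Among 32851 windows of the same length, 6.75% held TGANTCA, 12.6% held GGAATG, 12.4% held TATAAA and 32.7% held GGGCGG. Matches were thus found both in a window of a gene with wide spread and in one of a gene present in every cell, and a match describes the letters and not the binding of a factor.

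S100a10 encodes an S100 protein that has lost calcium binding and stays joined to Anxa2. Its FPKM ranged from 0 in cell 9 to 959 in cell 16 with a median of 254, and 33 of 39 cells were at 100 FPKM or more. The mean log2(FPKM + 1) was 7.71 ± 1.91 (SD over cells). Without cells 9 and 79 the lowest value was 12.8 FPKM, the SD was 1.32 and S100a10 met the uniform rule. Cell 43, of low depth, had 165 FPKM. Its level also moved with the share of the FPKM total on genes (Pearson r = 0.60 over 39 cells), and r was -0.08 without cells 9 and 79. The same r was 0.50 for Anxa4 and 0.36 for Anxa2, and 0.37 and 0.08 without those cells. It lay between -0.15 and 0.23 for the others over 39 cells. With the summed counts of a cell, r was 0.39 for S100a10, 0.33 for Anxa4, -0.31 for S100a6 and between -0.07 and 0.16 for the others.

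Anxa2 encodes the annexin of that pair, and its RNA was far more variable. Its FPKM ranged from 0 in cell 79 to 2587 in cell 67 with a median of 409, and 28 cells were at 100 FPKM or more. The mean log2(FPKM + 1) was 7.22 ± 3.25, and 97.2% of the 867 genes averaging at least 100 FPKM had a smaller SD. Detection at 1 FPKM was reached in 35 of 39 cells, which is 89.7% (exact 95% interval 75.8% to 97.1%, counting error over cells only) and just inside the limit of 90%. Anxa2 left the switching group without cells 9 and 79, where 91.9% of 37 cells had it and its SD was 2.99. Anxa2 also left it when any FPKM above 0 counted as detected, at 97.4% of 39 cells, and after rescaling, at 92.3% of 39 cells. After thinning, which also left out cell 9 and counted a single read as detection, Anxa2 left the group at 92.1% of 38 cells.

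Low Anxa2 RNA came with low S100a10 RNA in some cells and without it in others. In 27 cells both genes were at 100 FPKM or more. In 6 cells Anxa2 was below 10 FPKM, and in 4 of these S100a10 was at 100 FPKM or more, as it was in 33 of all 39 cells. S100a10 was at 467 FPKM in cell 30, where Anxa2 was at 1.09 FPKM. In cell 93 it was at 464 FPKM beside 0.17 FPKM of Anxa2, a single estimated count. Cells 65 and 71 had 196 and 172 FPKM of S100a10 beside 0.92 and 0.23 FPKM of Anxa2. These 4 libraries had between 3287 and 5708 genes at 1 FPKM. The remaining cells with low Anxa2 were cells 9 and 79, in which S100a10 was also low, at 0 and 16 FPKM. Over 39 cells the 2 genes had a Pearson r of 0.47 and a Spearman rho of 0.63, and r was 0.31 without cells 9 and 79.

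**Figure D2:**
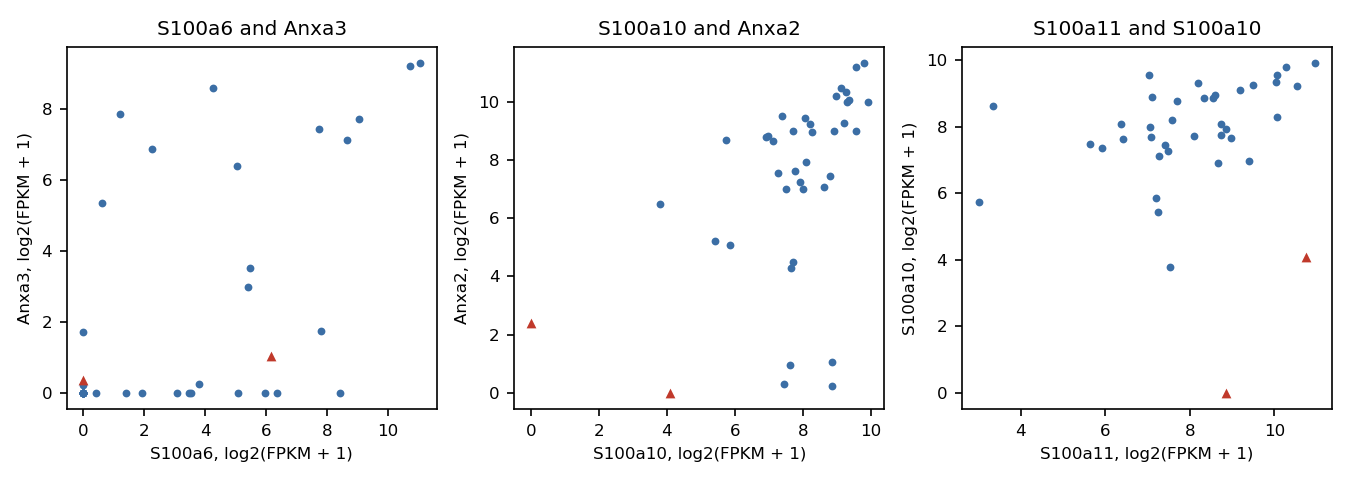
Levels of 3 pairs of genes in each cell as log2(FPKM + 1), with circles for 37 cells and red triangles for cells 9 and 79. S100a6 and Anxa3 are both high in the cells at upper right, and in the middle panel 4 cells have S100a10 at 172 FPKM or more with Anxa2 at 1.09 FPKM or less.

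S100a6 encodes calcyclin, an S100 protein first known from proliferating cells, and was the most variable of the 10 genes. Its FPKM ranged from 0 to 2121 with a median of 3.81, and the mean log2(FPKM + 1) was 3.31 ± 3.49. Of the 39 cells, 16 were below 1 FPKM, 5 between 1 and 10, 11 between 10 and 100, and 7 at 100 FPKM or more. Its values thus spanned the whole range between absence and high expression. Cells 5 and 67 had 2121 and 1692 FPKM and stood above the third cell, cell 16, at 531 FPKM. The 4 highest cells held 79.7% of the summed S100a6 FPKM. Of the 867 genes averaging at least 100 FPKM, 99.0% had a smaller SD.

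S100a6 was at 0 in 14 cells, 1 of them cell 79 with its few genes. They held between 1466914 (cell 79) and 3903971 estimated counts, at which 3 counts of S100a6, taken as the detection floor, would give 0.944 to 1.81 FPKM. In these 14 cells S100a10 ranged from 16 to 752 FPKM and Anxa4 from 347 to 1641 FPKM. Anxa2 was at 10 FPKM or more in 12 of them. Anxa3 stayed at or below 2.31 FPKM in each of the 14. Without cell 79 the lowest depth was 2639665 counts, the highest floor 1.35 FPKM and the lowest S100a10 value 41.9 FPKM. After each cell was thinned to 600000 reads, S100a6 still had a read in 60.5% of 38 cells, against 64.1% of 39 cells with an FPKM above 0 before thinning (59.0% at 1 FPKM).

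S100a11 encodes a partner of Anxa1 found in epithelia and was detected in every cell. Its FPKM ranged from 7.01 in cell 39 to 1998 in cell 16 with a median of 291, and 33 cells were at 100 FPKM or more. The mean log2(FPKM + 1) was 8.05 ± 1.77, a spread above the uniform limit in spite of detection throughout. The 10th and 90th percentiles of cells lay 14.1-fold apart, compared with 13.3-fold for S100a10 and 4.42-fold for Anxa4. The value for S100a11 can include reads of its processed pseudogene S100a11-ps.

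S100a13 encodes a protein linked to the release of growth factors without a signal peptide and was seen in few cells. It was at 0 in 29 cells and at 1 FPKM or more in 9, with a median of 12.6 FPKM over those 9. Cell 79 had 424 FPKM and cell 92 had 110 FPKM, and the next cell was at 20.8 FPKM. Cell 79, which had few genes detected, therefore held 70.4% of the summed FPKM. The SD of log2(FPKM + 1) was 2.05 and fell to 1.65 without cells 9 and 79, where S100a13 no longer met the switching rule.

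Anxa4 encodes an annexin of epithelial membranes and was both the most abundant and the least variable of the 10 genes. Its FPKM ranged from 119 in cell 9 to 1841 in cell 36 with a median of 915, and every cell was at 100 FPKM or more. The mean log2(FPKM + 1) was 9.66 ± 0.90. The SD was 0.78 without cells 9 and 79 and 0.81 after rescaling to the same sum. Of the 867 genes averaging at least 100 FPKM, 9.92% had a smaller SD.

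Anxa3 encodes an annexin known from neutrophil granules and resembled S100a6 in being at 0 in many cells and high in some. It was at 0 in 21 cells and at 1 FPKM or more in 15, and 8 cells were at 100 FPKM or more. The median over the 15 cells was 117 FPKM, the highest value was 629 FPKM in cell 5 and the mean log2(FPKM + 1) was 2.25 ± 3.33. Cell 5 and cell 67, at 595 FPKM, were also the highest cells for S100a6.

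Anxa5 encodes the annexin whose protein is used as a probe of exposed phosphatidylserine in dying cells. It was at 0 in 28 cells and at 1 FPKM or more in 8, with values of 245 FPKM in cell 65, 204 in cell 16, 181 in cell 48, 93.5 in cell 51, 50.5 in cell 34, 31.1 in cell 67, 10.9 in cell 94 and 1.46 in cell 2. Of these 8 cells, 7 were at 10 FPKM or more, and no other cell reached 1 FPKM. In 4 cells Anxa3 and Anxa5 were both at 10 FPKM or more.

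Anxa11 encodes an annexin with a long amino-terminal region that binds Pdcd6, and was low but widespread. Its FPKM ranged from 0 to 51.6 with a median of 6.13. It was at 1 FPKM or more in 29 cells, and 19 of these lay between 1 and 10 FPKM. With a limit of 10 FPKM Anxa11 counted as switching, as it did at 1 FPKM after each cell was rescaled to the same sum. A limit of 10 FPKM meets the median part of the switching rule by construction. Without rescaling, the median of Anxa11 over the cells at 1 FPKM or more was 7.35 FPKM. Antisense transcript Anxa11os overlaps the gene, and since the kit does not mark strand its reads cannot be told apart from those of Anxa11. The same holds for Gm16144 over Anxa2 and Gm44036 over Anxa4, on the opposite strand, and for Gm42603 over Anxa3, on the same strand.

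Anxa1 encodes an annexin known for its part in damping inflammation. It was at 329 FPKM in cell 92, with 1477 estimated counts, and at 0 in the other 38 cells. That is 2.56% of cells (exact 95% interval 0.0649% to 13.5%). The gene met neither rule. Cell 92 also had the second highest S100a13 value and 232 FPKM of Anxa3, and 3 counts of Anxa1 would have given between 0.487 and 2.71 FPKM in the cells.

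**Figure D3:**
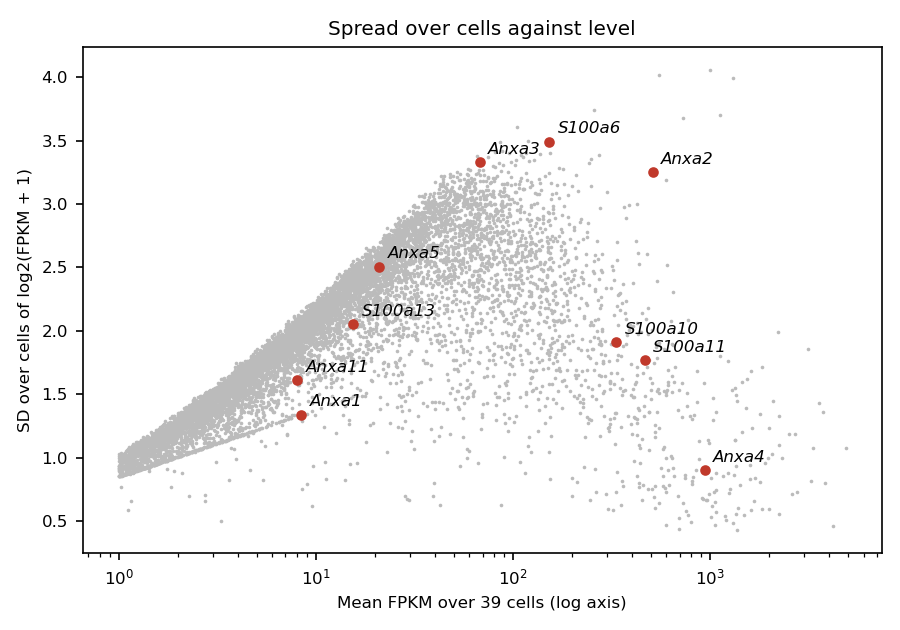
SD over cells of log2(FPKM + 1) against the mean FPKM over 39 cells on a log axis, with grey points for the 9804 genes averaging at least 1 FPKM and red points for the 10 S100 and annexin genes. At means of 100 FPKM or more, S100a6 (SD 3.49) and Anxa2 (SD 3.25) lie near the upper edge, S100a10 and S100a11 in the middle and Anxa4 (SD 0.90) low.

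By mean FPKM the order was Anxa4 (942 ± 445, SD over 39 cells), Anxa2 (513 ± 613), S100a11 (465 ± 488), S100a10 (335 ± 253), S100a6 (153 ± 433), Anxa3 (67.6 ± 154), Anxa5 (21.0 ± 58.4), S100a13 (15.4 ± 69.5), Anxa1 (8.42 ± 52.6) and Anxa11 (8.04 ± 10.3). Within a cell, S100a10 exceeded S100a6 in 35 of 39 cells, by a mean of 4.4 on the log2(FPKM + 1) scale with an SD of 3.70. The only other neighbours in the order that differed by more than the SD of their difference were Anxa1 and Anxa11. Anxa11 was the higher in 35 cells, so that the place of Anxa1 came from cell 92 alone. The place of S100a13 came from cell 79, without which its mean was 4.68 FPKM, below that of Anxa11. The remaining 7 neighbouring pairs did not differ beyond that spread.

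Several of the genes were high in the same cells. Over the 45 pairs of genes, the median Pearson r of log2(FPKM + 1) was 0.14 (range -0.45 to 0.58). In 6 pairs, 13.3%, r was at least 0.4, compared with 3.15% of the 12085986 pairs among 4917 genes averaging at least 10 FPKM, whose median r was 0.07. After each cell was rescaled to the same sum, 3 of the 45 pairs reached an r of 0.4, and the share among other genes was not recomputed on that scale. The 45 pairs include Anxa1 and Anxa11, which average less than 10 FPKM. Among the other 8 genes, 5 of 28 pairs (17.9%) reached an r of 0.4. The points are cells whose libraries were pooled for sequencing and differ in depth, and adjusting for the number of genes detected gave a median r of 0.15.

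**Figure D4:**
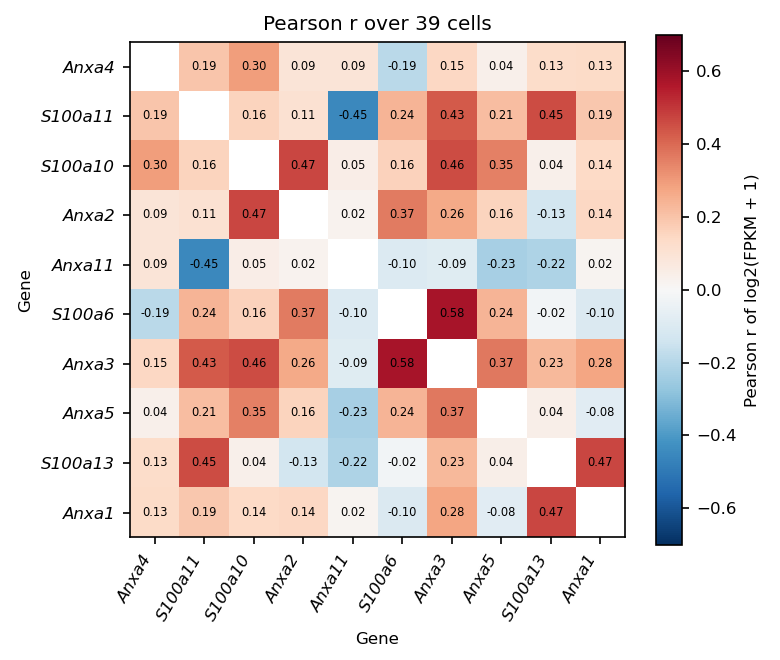
Pearson r of log2(FPKM + 1) over 39 cells for each pair of the 10 genes, printed in each square and coloured from blue (negative) to red (positive). The highest value is that of S100a6 and Anxa3 (0.58) and the lowest that of S100a11 and Anxa11 (-0.45).

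S100a6 and Anxa3 had the highest Pearson r over 39 cells, 0.58, with a Spearman rho of 0.54. By Spearman the pair of S100a10 and Anxa2 was higher (0.63), and without cells 9 and 79 the highest Pearson r was that of S100a13 and Anxa1 (0.62). S100a6 and Anxa3 were both at 100 FPKM or more in 5 cells, numbers 5, 16, 29, 34 and 67. These genes had an r of 0.59 without cells 9 and 79. Without cells 5 and 67, the highest cells for both genes, r fell to 0.43, by more than its approximate standard error over cells. Of the 8 cells with Anxa3 at 100 FPKM or more, the 3 others had little S100a6, at 18.2 FPKM in cell 51, 3.81 in cell 95 and 1.29 in cell 92. Of the 7 cells with S100a6 at that level, cells 56 and 63 had 2.35 and 0 FPKM of Anxa3. The genes thus overlapped in part and did not mark the same cells throughout.

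**Figure D5:**
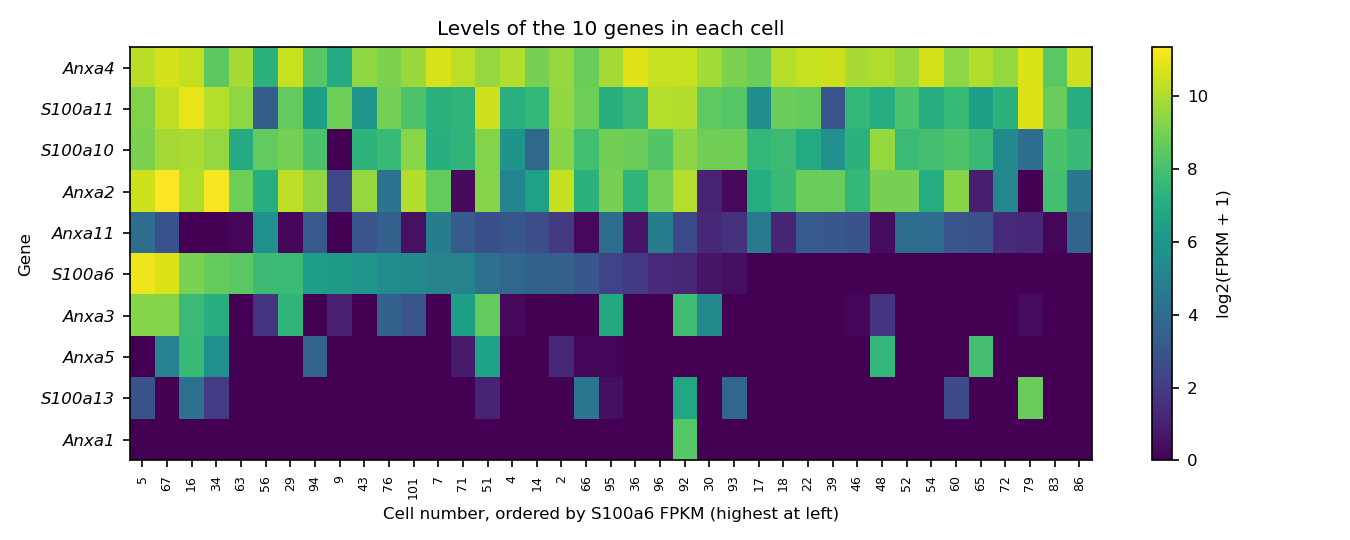
Level of the 10 genes (rows) in the 39 cells (columns, by cell number) as log2(FPKM + 1), with cells ordered by S100a6 FPKM from the highest at left. Anxa4, S100a11 and S100a10 are bright across nearly all cells, and in the 14 cells with S100a6 at 0 Anxa3 does not exceed 2.31 FPKM.

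Anxa3 had an r of 0.46 with S100a10 and of 0.43 with S100a11, and these values were 0.57 and 0.48 without cells 9 and 79. S100a11 and S100a10, neighbours on chromosome 3, had an r of 0.16 over 39 cells and 0.45 without cells 9 and 79, in which S100a11 was at 461 and 1733 FPKM and S100a10 at 0 and 16 FPKM. S100a11 and S100a13 had an r of 0.45, and of 0.40 without cells 9 and 79. For S100a13 and Anxa1, r was 0.47 and rested on cell 92, the only cell with Anxa1, and it was 0.62 without cells 9 and 79. S100a11 and Anxa11 ran in opposite directions, with an r of -0.45 that was -0.43 without cells 9 and 79. In contrast, r between S100a11 and Anxa1, which encode known partners, was 0.19, with Anxa1 above 0 in a single cell.

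For each switching gene, the other genes with the most similar pattern among those averaging at least 10 FPKM were listed. For S100a6 they were H2-Ke6 (r = 0.64), Ugt2b34 (0.62) and a copy of Sprr2a1 (0.62), and for Anxa3 they were Gsn (0.70), Ugt2b34 (0.60) and Sprr2a2 (0.58). Ugt2b34, a glucuronosyltransferase, thus appeared for both. H2-Ke6 was at 1 FPKM or more in 7 cells and Gsn in 9. The Sprr2a copies, which encode cornified envelope proteins, are nearly identical and share reads. Anxa2 was most like Sdcbp (0.61), Txn1 (0.61) and Kif5b (0.57), all at 1 FPKM or more in at least 37 cells, and these values were 0.49, 0.46 and 0.43 without cells 9 and 79. Anxa5 was most like Rasl11a (0.68), Trp53inp1 (0.60), a p53 target, and Dusp3 (0.58), at 1 FPKM or more in 4, 11 and 9 cells. For S100a13 the most similar genes, Igtp (0.78), Rac2 (0.63) and Folr1 (0.63), were each at 1 FPKM or more in at most 2 cells. Without cells 9 and 79 these values were 0.62, 0.20 and 0.17.

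Of 19 further S100 and annexin genes in the table, 9 were at 0 in every cell and 10 reached 1 FPKM in a cell, as did 49.3% of all 25219 genes. At least 4 cells with 10 FPKM or more were found for Anxa13, Anxa7, S100a1 and S100a16. Anxa13, an annexin known from intestinal epithelium, was at 10 FPKM or more in 24 cells with a median of 35.7 FPKM and a highest value of 846 FPKM in cell 9. S100a1 and S100a16 were each at 1 FPKM or more in 19 cells, with highest values of 432 and 144 FPKM. Anxa7 was at 1 FPKM or more in 21 cells and reached 132 FPKM. Of the 10 further genes averaging at least 1 FPKM, 6 switched and 0 were uniform, beside 55.5% and 3.2% of the 9804 genes. Over these genes, the highest r with any of the 10 described genes was that of S100g with Anxa1 (0.68), which both had their highest value in cell 92. Anxa13 had an r of 0.46 with S100a6, both being at 10 FPKM or more in 14 cells.

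Genes for proteins that bind these S100 proteins and annexins were measured beside them. Of 10 such genes, 7 reached 1 FPKM in a cell, and Trpv6, a calcium channel carried to the membrane by S100a10 and Anxa2, Dysf, a membrane repair protein, and Fgf1, the growth factor released with S100a13, were at 0 in every cell. Cacybp, which encodes the calcyclin-binding protein, was at 10 FPKM or more in 35 cells with a median of 133 FPKM, and its r with S100a6 was -0.22. Pdcd6 was at 10 FPKM or more in 31 cells with a median of 132 FPKM. Ahnak, a large scaffold for S100a10 and Anxa2, was at 1 FPKM or more in 6 cells and reached 10.6 FPKM.

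The levels were finally set beside lists of marker genes, as Pearson r between a gene and the log2 of the summed list FPKM plus 1 over 39 cells. With 6 crypt stem cell genes (Lgr5, Olfm4, Ascl2, Smoc2, Aqp4 and Axin2), r was -0.50 for S100a6, -0.46 for S100a13, -0.42 for Anxa3, -0.38 for S100a11 and -0.28 for Anxa2. It lay between -0.23 and -0.15 for Anxa5, Anxa4, Anxa1 and S100a10, and was 0.30 for Anxa11. Without cells 9 and 79 it was -0.61 for S100a6, -0.34 for S100a13, -0.47 for Anxa2 and -0.37 for S100a10. The sum of this list was mostly Olfm4, with a mean of 997 FPKM against at most 71.3 FPKM for the others. With 16 YAP target genes, r was 0.51 for Anxa3, 0.43 for S100a6 and 0.38 for Anxa5, between 0.10 and 0.29 for Anxa1, S100a10, S100a11, Anxa2 and S100a13, -0.19 for Anxa4 and -0.17 for Anxa11. Without cells 9 and 79 it was 0.52 for Anxa3, 0.40 for S100a6, 0.39 for S100a13 and 0.33 for S100a11. Of the 13 YAP target genes above 0 in a cell, 9 had a positive r with S100a6 and 10 with Anxa3. Among the 12085986 pairs of genes averaging at least 10 FPKM, 64.9% had an r of 0 or more. Several of the 13 average less than that, such as Anxa8 (8.94 FPKM) and Il33 (5.09 FPKM), so the sets are unlike. No excess over that share was tested. Cyr61 had an r of -0.28 with S100a6. The paper itself counts S100a6 among the YAP targets, but S100a6 was not on this list. Anxa8, an annexin, was on the list and had an r of 0.48 with Anxa3. The list summed to 10 FPKM or more in 30 cells, with a median of 92 FPKM. Its members with the highest means were Crip2 (86.3 FPKM), Clu (41.7 FPKM) and Ly6a (25.5 FPKM), at 10 FPKM or more in 16, 4 and 2 cells. With Ly6a alone, r was 0.48 for S100a6 and 0.41 for Anxa3, and both cells with Ly6a at 10 FPKM or more were among the 5 cells in which S100a6 and Anxa3 were high together. The leukocyte list summed to at most 613 FPKM, of which Cd74 in cell 51 made up nearly all, and its r was 0.49 with S100a10, 0.42 with Anxa3, 0.39 with Anxa2, 0.39 with Anxa5, 0.35 with S100a11 and -0.29 with Anxa11. With the Paneth, goblet and enterocyte lists, r of S100a6 was 0.24, 0.26 and 0.07, the last being 0.24 without cells 9 and 79. The enterocyte list had an r of -0.49 with Anxa1 and of 0.16 with S100a13, and without cells 9 and 79 these were -0.63 and -0.44. Every r of Anxa1 with a list rests on cell 92, the only cell in which Anxa1 was above 0. The epithelial list had an r of 0.47 with Anxa4, 0.45 with S100a11 and 0.43 with S100a13, and without cells 9 and 79 these were 0.37, 0.43 and 0.14. The neutrophil list, which was Csf3r alone in these cells, had an r of -0.69 with S100a10, and of -0.15 without cells 9 and 79. The part of these cell programmes in the spread of the S100 and annexin genes was not tested.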

How the data were processed

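Sorted cells were loaded on the Fluidigm C1 system, capture sites were then inspected by microscope for single occupancy, cDNA was amplified with SMARTer chemistry, and Nextera XT libraries were read from both ends. The submitters' processing notes name bcl2fastq 1.8.4, TopHat2 2.0.14 and the builds mm10 and GRCm38, while the counting tool and annotation are not given in the sources used here. For each of 39 cells the authors deposited an FPKM and an estimated count per gene, for 25219 genes. FPKM was used as deposited. The estimated counts, of which 18.5% of those above 0 were not whole, gave depth and floors (3 counts) and, rounded, were thinned to 600000 reads, which left out 1 cell. No molecular identifiers are named, so intervals cover counting error only, and a transcript lost before amplification appears as 0. No column was without a sample, and no libraries were identical.

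A pseudocount of 1 FPKM was added before taking log2. Because cells do not replicate a condition and the labels name no animal, no count model was fitted and no p-value was computed. The 10 genes, the lists of marker and partner genes and the rules were chosen with earlier results of these data known. Named genes were the 10 genes, further S100 and annexin genes at 10 FPKM or more in at least 4 cells, list genes behind a count, and for each switching gene the 3 genes with the highest Pearson r among those with a mean of at least 10 FPKM. Ly6g was not analysed here. Doublets were not called. Alternatives were other detection limits, a pseudocount of 0.1 FPKM, thinning, rescaling of each cell to the same sum, Spearman and partial correlation, and leaving out cells 9 and 79. Background at 100 FPKM, pairs without cells 5 and 67, pairs without the cells farthest from the median, pairs of genes averaging at least 10 FPKM, list correlations without cells 9 and 79 and S100a6 at 0 without cell 79 were chosen after seeing the data. The steps were tested on simulated data. Promoters were RefSeq sequences of GRCm38.p6. Values were computed in Python 3.11.15 with pandas 2.3.3, numpy 2.4.6 and scipy 1.17.1, and drawn with matplotlib 3.10.9.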

Additional observations from a re-analysis of the deposited data

How the results depend on the processing

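S100a6, Anxa3 and Anxa5 switched and Anxa4 was uniform under every alternative tried. Of these, the pseudocount does not enter the switching rule, and the detection limits could not move Anxa4, which was at 119 FPKM or more in each cell. With a limit of 10 FPKM, the median part of the switching rule is met by construction. The number of switching genes, 5, fell to 3 when any FPKM above 0 counted as detected and to 3 without cells 9 and 79. S100a13 and Anxa2 left the group in both cases. Anxa2 also left it after thinning (4 switching genes) and after rescaling, where Anxa11 took its place among 5. The number of uniform genes, 1, became 2 without cells 9 and 79 and 2 after thinning to 600000 reads, where S100a10 joined Anxa4. The thinned setting also left out cell 9, the only cell with S100a10 at 0, and counted a single read as detection. What thinning alone changes therefore cannot be told apart. The median share of cells with each gene, 66.7%, was 37.2% with a limit of 10 FPKM. The median SD over the 10 genes, 1.98, was 2.90 with a pseudocount of 0.1 FPKM. The median r over pairs, 0.14, lay between 0.11 and 0.19 under its alternatives, and the number of pairs with an r of at least 0.4, 6, lay between 3 (rescaled) and 7. Of the 15 places for genes most like the switching genes, 3 were held by the same genes with Spearman correlation and 7 with no filter on low values, so these names depend on the measure. Apart from what the construction of an alternative shows (fewer cells, another limit), the cause was not tested. Of the further values for single genes and pairs, 96 stayed within a limit of sampling error over cells and 24 went beyond it. For a share of cells this limit was its exact interval, and for an SD or an r it was an approximate standard error over cells. These limits treat cells as replicates and do not cover differences between mice. Without cells 9 and 79, r changed sign in 6 of the 45 pairs, none of which had an r above 0.13 in size over 39 cells. No paired analysis was possible because all cells form 1 group and no test was made. Leaving out each cell in turn was not run, since there are more than 5 cells in the group. Depth limits the statement that a gene is at 0 to levels above the floor of 3 counts, which was at most 1.81 FPKM in the 14 cells with S100a6 at 0.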
